A study of Mus musculus with 9 samples.

Results

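The genes described here are 31 mouse genes of cholesterol synthesis and its control, chosen by name from the biochemistry of the pathway. Earlier results of these data were known when they were chosen. All 31 were found among the 36410 rows of the table of ribosome footprint counts, and all 31 were among the 12678 genes abundant enough to be tested. They comprise 18 enzymes that carry acetyl-CoA to cholesterol, 5 genes of sterol sensing, 5 of uptake, efflux and intracellular transport, and 3 of fatty acid synthesis. Ribo-seq sequences the short stretches of mRNA that ribosomes shield from nuclease (ribosome-protected fragments, RPFs), so each value is the share of all footprints that lay on a gene. The RPFs came from immortalized mouse striatal cells, which are precursor cells of the embryonic striatum that divide in culture. Control cells (STHdhQ7/Q7) carry 2 huntingtin alleles with 7 glutamines, HD-het cells (STHdhQ7/Q111) carry 1 allele with 7 and 1 knock-in allele with 111, and HD-homo cells (STHdhQ111/Q111) carry 2 knock-in alleles with 111. The strain was given as C57/BL6 for every line, and all cells received cycloheximide, which halts elongating ribosomes, for 10 min before lysis. Each genotype was 1 cell line with 3 libraries from separate rounds of culture, so genotype and line cannot be told apart, and the p-values measure the spread between cultures of 1 line.

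Cells make cholesterol from acetyl-CoA through mevalonate, farnesyl diphosphate, squalene and lanosterol. When sterols in the endoplasmic reticulum are low, SCAP carries the SREBP transcription factors to the Golgi for cleavage, and the released SREBP2 turns on the genes of the pathway, while INSIG proteins hold SCAP back when sterols are high. Oxysterols activate the LXR receptors, whose targets include the efflux pump ABCA1, and neurons draw part of their cholesterol from glia.

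Libraries held 22504543 to 41888701 counts, and values are given as CPM, counts scaled to a total of 1e6 per library after correction by TMM factors. A count of 0 allows up to 3 counts, which is 0.0714 to 0.142 CPM depending on the library and covers counting error only. Of the listed markers of medium spiny neurons, Drd1, Drd2, Gad1 and Bcl11b lay at or under that floor in all 9 libraries. The 13 listed spiny neuron markers summed to 45.3 to 51.8 CPM in control, 48.6 to 52.2 in HD-het and 68.9 to 76.0 in HD-homo libraries. Most of this came from Foxp1, at means of 33.5, 43.1 and 56.9 CPM in that order of lines, and Ppp1r1b, at 12.04, 5.18 and 10.5 CPM. Of the 5 listed neural precursor markers, Vim was abundant in each line. The precursor marker Nes averaged 399.5 CPM in control and 1086 CPM in HD-het cells, but 7.01 CPM in HD-homo cells. Sox2 (means of 51.1, 33.9 and 2.26 CPM in control, HD-het and HD-homo) and Pax6 (17.3, 24.8 and 0.0759 CPM) were also low in HD-homo. Msi1 averaged 5.00, 4.81 and 3.19 CPM in that order of lines. The 8 fibroblast and perivascular markers summed to 4319 to 8229 CPM in control, 27788 to 39527 in HD-het and 7540 to 10370 in HD-homo libraries, led by Col1a1 and Fn1, with Thy1 at or under the floor throughout. Their sum was highest in HD-het, the line that also had most of the 2-fold falls of sterol genes. Of the 8, Col1a2 (means of 24.02, 88.9 and 1027 CPM in control, HD-het and HD-homo) and Dcn (7.30, 11.5 and 40.6 CPM) were instead highest in HD-homo. The part of these markers in the differences below was not tested. Sums of the markers of oligodendrocytes, astrocytes and microglia stayed at or under 26.8 CPM in every library, and Mog, Mobp, Olig1, Olig2, Aqp4, S100b, Aif1, Cx3cr1 and Itgam were at or under the floor in all of them.

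The stretches of promoter printed here show the letters that SREBP2 and its partner factor NF-Y are known to read at genes of this pathway. Promoter windows from 250 bases before to 50 bases after the transcription start (RefSeq, GRCm38.p6) were found for 24 of the 31 genes. The sterol element, written TCACNCCAC, was found on either strand in 1 of the 24, Hmgcs1, against 1.39% of the 9795 tested genes with a window. It lay in chr13:119690204-119690233 on the plus strand, with its middle 133 bases before the start, and is printed in capitals.
Hmgcs1: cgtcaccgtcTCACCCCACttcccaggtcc
The NF-Y box CCAAT, which reads ATTGG when it lies on the opposite strand, was present in 21 of 24 genes (87.5%) against 43.5% of tested genes. The GC box GGGCGG, which Sp1 binds, was present in 22 of 24 (91.7%) against 69.7%. The upstream CCAAT nearest the start is shown in capitals, on the gene's strand, for 3 genes with lower RPFs in HD-het than in control cells (Idi1, Srebf2 and Mylip) and for Dhcr7, the 1 synthesis enzyme with higher RPFs there. The windows were chr13:8885580-8885609 on the plus strand for Idi1, chr15:82147122-82147151 on the plus strand for Srebf2, chr13:45389663-45389692 on the plus strand for Mylip and chr7:143830153-143830182 on the plus strand for Dhcr7. For a gene with several annotated starts, the box nearest to any of them was taken. Dhcr7 has 3 promoter windows, and the stretch printed lies inside the gene, which spans chr7:143823167-143848410.
Idi1: gtccaaggtgccATTGGctggcgaccgaca
Srebf2: cttcgcgcgccgATTGGctaatgcaagcct
Mylip: aagcacgctgtgATTGGcggagtccggtgc
Dhcr7: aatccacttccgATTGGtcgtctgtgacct
All 4 of these windows held the box on the opposite strand, whichever way the gene's RPFs differed. In Pmvk, Mvd, Cyp51, Msmo1 and Insig2 the nearest upstream box lay on the gene's own strand, so the strand was not uniform over the set. A match is a description of the letters and not a site shown to be bound.

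Most cholesterol synthesis enzymes carried fewer RPFs in both HD lines than in control cells, whereas the largest rises, those of the transport genes Abca1 and Npc1, were found in HD-het cells. Differences were tested with edgeR's quasi-likelihood F test, with Benjamini-Hochberg adjustment over all 12678 genes and 0.05 as the threshold, and are given as log2 fold changes ± standard error (SE). All 31 genes differed somewhere among the 3 lines, against 78.4% of all genes tested. In HD-het against control, 20 of 31 genes (64.5%) were lower, against a background of 29.1%, and 6 (19.4%) were higher, against 31%. The median log2 fold change of the 31 was -0.79, and that of all genes 0.02. In HD-homo against control, 21 (67.7%) were lower, against 22.3%, and 2 (6.45%) were higher, against 23.3%, with a median of -0.62. Between HD-homo and HD-het, 12 (38.7%) were higher, against 34.6%, and 10 (32.3%) were lower, against 32.8%, so these shares lay near the background. Of the 31 genes, 15 were lower than control in both HD lines, and Srebf1 and Abca1 were higher in both. The share of all genes called in both lines is not given here, so these counts have no background beside them. Both HD lines were compared with the same 3 control libraries, so the comparisons are not independent of each other. Because the genes were chosen with earlier results known, the shares set beside the background are a description and not a test. In bulk libraries, fewer cells of a kind and less RNA or translation per cell cannot be told apart, and no mRNA libraries were used here, so the values are not translation efficiencies.

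Changes of at least 2-fold were mostly those of HD-het cells. There, 10 genes (32.3%) were lower by that much, against 6.91% of all genes, namely Acat2, Hmgcs1, Idi1, Fdps, Fdft1, Sqle, Nsdhl, Srebf2, Mylip and Stard4. Abca1 and Npc1 (6.45%) were higher by at least 2-fold, against 13.9%. In HD-homo cells only Fdps and Tm7sf2 were lower than in control by at least 2-fold (6.45%, against 8.27%) and none of the 31 was higher by that much (background 8.94%). From HD-het to HD-homo, Hmgcs1, Idi1 and Mylip were higher by at least 2-fold (9.68%, against 11.1%). Tm7sf2, Ebp, Dhcr7, Abca1, Npc1 and Scd2 were lower (19.4%, against 16.2%).

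**Figure D1:**
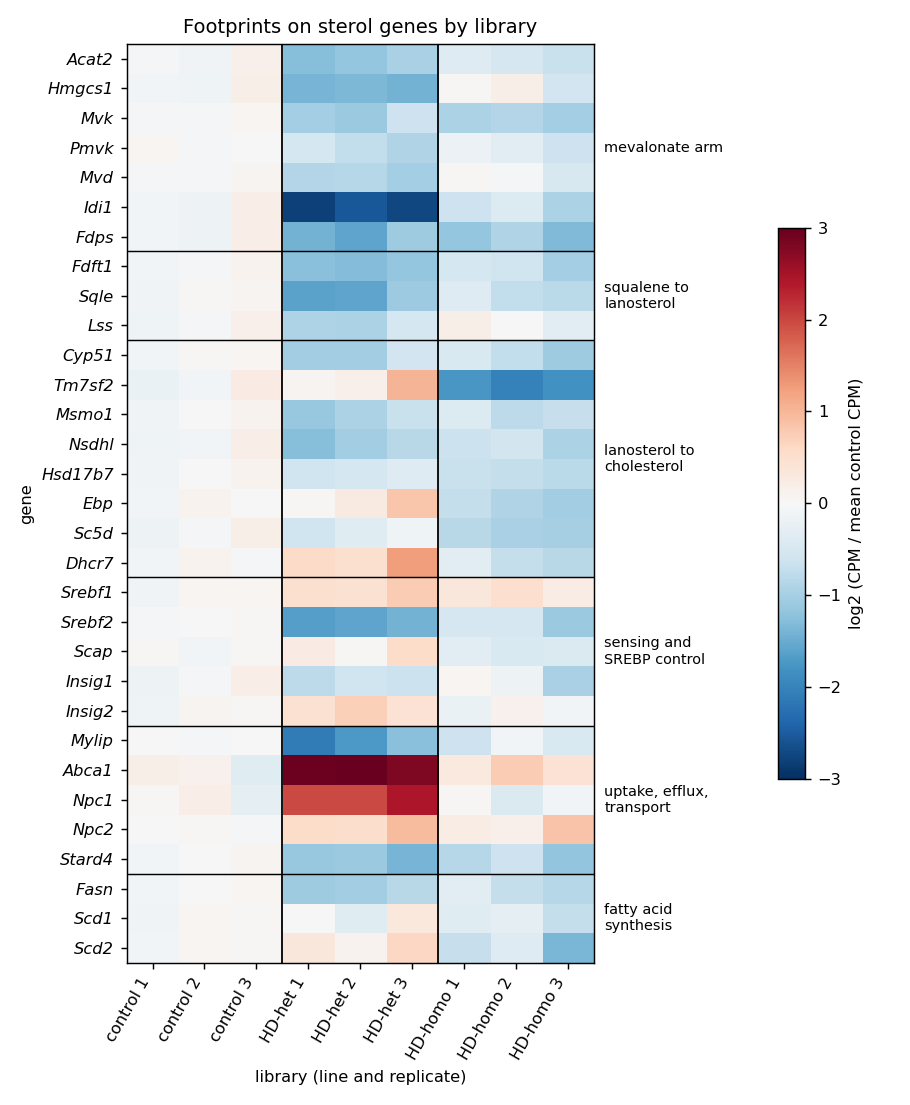
Footprint level of the 31 genes (rows, in pathway order) in the 9 libraries (columns), as log2 of CPM over the mean of the 3 control libraries, with blue for lower and red for higher. Most enzymes are blue in the 3 HD-het libraries, Idi1 most of all, while Abca1 and Npc1 are deep red in HD-het only.

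**Figure D2:**
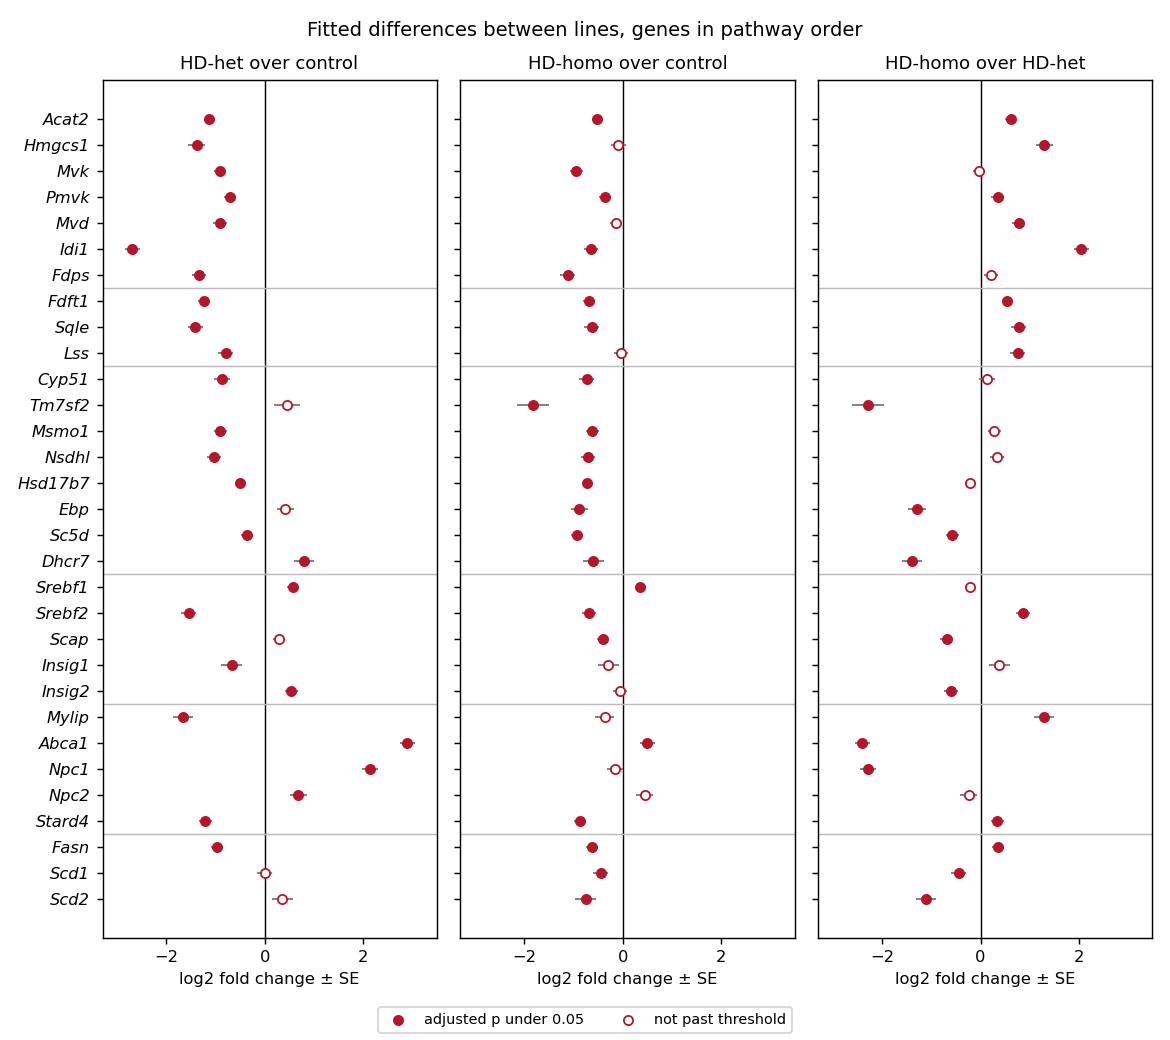
Fitted log2 fold change with its standard error (horizontal bars) for each gene in the 3 comparisons, with filled points past an adjusted p of 0.05 and open points not past it. All 18 synthesis enzymes (top 3 blocks) lie left of 0 in HD-homo over control, although Hmgcs1, Mvd and Lss (open points) turned positive under 1 to 3 of 17 alternatives each, and 15 of the 18 lie left of 0 in HD-het over control.

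The 7 enzymes of the mevalonate arm, which build farnesyl diphosphate from acetyl-CoA, all carried fewer RPFs in HD-het cells than in control, and the median of their log2 fold changes was -1.13. Control libraries summed to 606, 584 and 716 CPM over the arm, HD-het libraries to 239, 233 and 261 CPM and HD-homo libraries to 470.0, 516 and 350.1 CPM. The 3 lines did not overlap, and HD-homo lay between the other two lines. In HD-homo against control, 5 of the 7 were lower and none was higher, and in HD-homo against HD-het 5 were higher and none was lower.

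Idi1, the isopentenyl diphosphate isomerase, showed the largest fall of the 31 genes. Its level was 73.7, 70.2 and 90.0 CPM in control, 11.1, 13.3 and 11.7 CPM in HD-het and 50.4, 58.9 and 40.5 CPM in HD-homo libraries, so every HD-het library lay below all HD-homo libraries, which in turn lay below all control libraries. The fall in HD-het was 6.45-fold (log2 fold change -2.69 ± 0.15, adjusted p = 1.81e-07), and the level in HD-homo was lower than control by a smaller amount (-0.64 ± 0.14, adjusted p = 0.00322). HD-homo exceeded HD-het (2.05 ± 0.15, adjusted p = 4.94e-07). Because 79.6% of the 28-nt windows of the Idi1 coding sequence also occur in the processed copy Gm13502, which has no row of its own in the table, reads could have been split or dropped in counting.

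Hmgcs1, which makes HMG-CoA, was low in HD-het only. It measured 216, 210.1 and 260.0 CPM in control, 86.9, 90.4 and 85.4 CPM in HD-het and 236, 259 and 153 CPM in HD-homo libraries. The HD-het libraries lay close together below all others, whereas HD-homo spanned a wide range that overlapped control, with replicate 3 lowest. The test gave -1.38 ± 0.17 (adjusted p = 3.23e-05) for HD-het and -0.08 ± 0.16 (adjusted p = 0.707) for HD-homo against control, and HD-homo exceeded HD-het (1.30 ± 0.16, adjusted p = 3.25e-05). None of its coding windows is shared with another gene.

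Fdps, the farnesyl diphosphate synthase, was low in both HD lines. Levels were 209, 199 and 252 CPM in control, 82.3, 74.0 and 105 CPM in HD-het and 97.9, 118 and 88.4 CPM in HD-homo libraries, and the 2 HD lines overlapped each other but not control. The log2 fold change was -1.34 ± 0.15 (adjusted p = 2.02e-05) in HD-het and -1.12 ± 0.15 (adjusted p = 9.28e-05) in HD-homo, and HD-homo did not pass the threshold against HD-het (0.22 ± 0.15, adjusted p = 0.209). Of its coding windows 98.4% recur in other annotated genes, mostly in the overlapping gene Gm43738, so its reads cannot be told apart from theirs. The remaining enzymes of the arm had HD-het log2 fold changes from -1.13 (Acat2, the thiolase of the first step) through -0.91 (Mvk, mevalonate kinase) and -0.91 (Mvd, the decarboxylase) to -0.71 (Pmvk, phosphomevalonate kinase). In HD-homo, Mvk was low (-0.94 ± 0.13, adjusted p = 1.05e-04), while Mvd did not pass the threshold (-0.13 ± 0.13, adjusted p = 0.434). Pmvk in HD-homo against control (-0.36 ± 0.13, adjusted p = 0.0352) lost its call with library totals alone and without any one of control replicates 1, 2 and 3 or HD-homo replicates 2 and 3, with values from -0.38 to -0.25. Acat2 shares 79.6% of its windows with Acat3, whose row held 5617 counts in all.

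The 3 enzymes that lead from farnesyl diphosphate to lanosterol were all lower in HD-het than in control, and HD-homo exceeded HD-het for each of them. Sqle, the squalene epoxidase, a control point of the pathway, measured 114, 127 and 129.9 CPM in control, 40.5, 41.1 and 58.4 CPM in HD-het and 94.7, 73.8 and 70.8 CPM in HD-homo libraries. The lines did not overlap, and HD-homo was intermediate. The differences from control were -1.41 ± 0.15 (adjusted p = 1.70e-05) in HD-het and -0.63 ± 0.15 (adjusted p = 0.00530) in HD-homo, and 0.78 ± 0.15 (adjusted p = 8.19e-04) between HD-homo and HD-het.

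Fdft1, the squalene synthase, followed the same order, with 97.9, 103 and 113 CPM in control, 44.0, 42.2 and 46.6 CPM in HD-het and 72.9, 69.4 and 51.7 CPM in HD-homo libraries. No library of 1 line overlapped another line, although HD-homo replicate 3 came near the HD-het values. The log2 fold changes were -1.24 ± 0.12 (adjusted p = 8.52e-06) in HD-het and -0.69 ± 0.12 (adjusted p = 7.22e-04) in HD-homo against control, and 0.55 ± 0.12 (adjusted p = 0.00188) in HD-homo against HD-het. Its coding windows recur in Gm6781 for 52.8%. Lss, the lanosterol synthase, measured 35.2, 37.6 and 42.8 CPM in control, 20.4, 19.9 and 26.7 CPM in HD-het and 43.8, 38.5 and 30.7 CPM in HD-homo libraries. Only HD-het stood apart, at -0.79 ± 0.15 (adjusted p = 8.76e-04), while HD-homo overlapped control (-0.03 ± 0.15, adjusted p = 0.892) and exceeded HD-het (0.76 ± 0.15, adjusted p = 8.86e-04).

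The 8 enzymes from lanosterol to cholesterol behaved otherwise. All 8 were lower in HD-homo than in control, with a median log2 fold change of -0.73, whereas in HD-het 5 were lower, 1 was higher and 2 did not pass the threshold, with a median of -0.43. Summed over the 8, control libraries held 458, 491 and 526 CPM, HD-het 281, 308 and 400.4 CPM and HD-homo 343, 289 and 267 CPM. The HD lines overlapped in these sums, unlike in the mevalonate arm. Between HD-homo and HD-het none of the 8 was higher and 4 were lower.

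**Figure D3:**
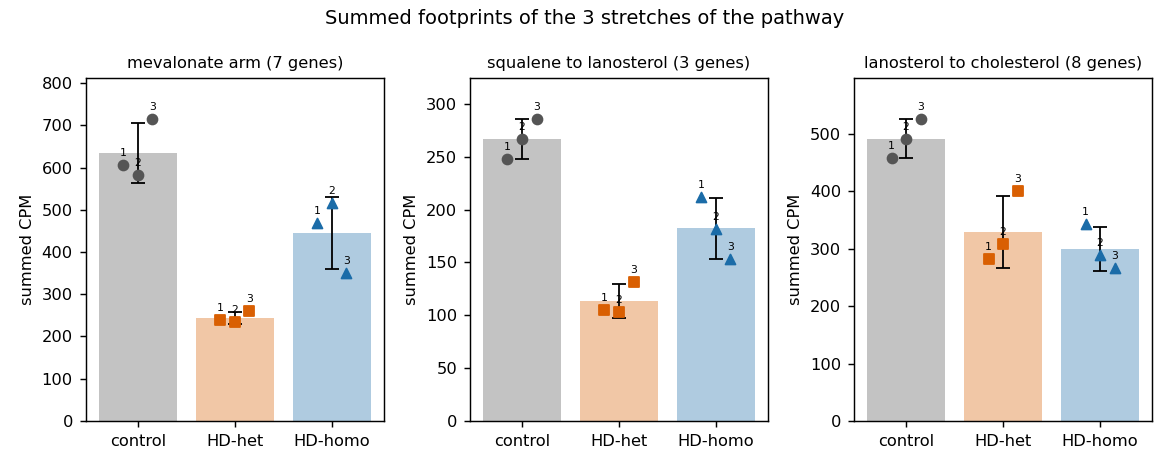
Summed CPM of the enzymes of each stretch of the pathway per library (points, with the replicate number), with the mean (bar) and SD (error bar, n = 3). HD-het is lowest in the first 2 stretches, with means of 244 and 113 CPM, while in the last stretch the HD lines overlap, with means of 329.9 and 299.6 CPM.

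Dhcr7, the reductase that makes cholesterol from 7-dehydrocholesterol, moved in opposite directions in the 2 HD lines. It measured 9.89, 11.3 and 10.0 CPM in control, 15.4, 14.5 and 24.9 CPM in HD-het and 8.37, 6.35 and 5.85 CPM in HD-homo libraries. All HD-het libraries were above and all HD-homo libraries below control, with HD-het replicate 3 highest. The log2 fold change was 0.80 ± 0.20 (adjusted p = 0.00502) in HD-het and -0.59 ± 0.21 (adjusted p = 0.0374) in HD-homo, and the direct test between the HD lines gave -1.39 ± 0.21 (adjusted p = 1.12e-04). Among the fits that left out a library, the HD-homo fall lost its call without control replicate 1 (-0.65), control replicate 2 (-0.53), control replicate 3 (-0.62), HD-homo replicate 2 (-0.53) or HD-homo replicate 3 (-0.49). The HD-het rise and the difference between the HD lines kept their calls in every alternative run, although the HD-het rise was 0.50 without HD-het replicate 3.

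Ebp, the sterol isomerase, was low in HD-homo, with 39.0, 44.1 and 40.9 CPM in control, 42.2, 49.7 and 73.9 CPM in HD-het and 25.0, 22.0 and 20.2 CPM in HD-homo libraries. HD-het replicates 2 and 3 lay above all control libraries and replicate 1 lay within them, so HD-het overlapped control (0.42 ± 0.17, adjusted p = 0.0573), although that difference passed the threshold with DESeq2 (0.43), with at least 10 counts in every library (0.44), with GC and length offsets (0.56) and without HD-het replicate 1 (0.56). Without HD-het replicate 3 the HD-het difference was 0.14 and did not pass. HD-homo was lower than control (-0.88 ± 0.18, adjusted p = 0.00183) and than HD-het (-1.30 ± 0.18, adjusted p = 5.98e-05).

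Tm7sf2, a sterol reductase that shares its step with the lamin B receptor, was the least abundant of the 31 genes. Its libraries held 32, 55 and 44 counts in control, 39, 56 and 60 counts in HD-het and 15, 9 and 9 counts in HD-homo cells, or 1.22, 1.31 and 1.66 CPM, 1.48, 1.54 and 2.84 CPM and 0.417, 0.344 and 0.399 CPM. All HD-homo libraries lay below all others, at -1.83 ± 0.33 (adjusted p = 8.57e-04) against control and -2.28 ± 0.32 (adjusted p = 7.16e-05) against HD-het, and HD-het did not pass the threshold against control (0.46 ± 0.26, adjusted p = 0.155). The gene overlaps Vps51 on the same strand, so footprints of the shared stretch cannot be assigned to 1 of them. None of the 28-nt windows of the Tm7sf2 coding sequence occurs in another gene, so this limit concerns footprints outside it. The other 5 enzymes were lower in both HD lines. Cyp51, the lanosterol demethylase, Msmo1, the methyl oxidase, Nsdhl and Hsd17b7, which complete removal of the methyl groups, and Sc5d, the desaturase before the last step, had HD-het log2 fold changes of -0.87, -0.90, -1.04, -0.51 and -0.35. In HD-homo the values for the same enzymes in that order were -0.73, -0.62, -0.70, -0.72 and -0.93. The HD-het call of Sc5d was lost with GC and length offsets (-0.31) and without control replicate 3 (-0.26), HD-het replicate 1 (-0.26) or HD-het replicate 2 (-0.37).

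Genes of the pathway shifted together in single libraries. In HD-homo replicate 3, 17 of the 18 synthesis enzymes lay below the mean of the line's other libraries, with a median difference of -0.31 in log2 CPM, and in HD-het replicate 3 the median was 0.36 with 14 of 18 at their highest in that line. Over all genes the medians of these 2 libraries were -0.01 and 0.02. TMM scaling places the typical gene near 0, so the shift of the enzymes is relative to the typical gene. Whether other groups of genes shifted as much was not tested. Control libraries shifted together too. In control replicate 1, 17 of 18 enzymes lay below the mean of the line's other libraries, with a median of -0.13. In control replicate 3, 15 of 18 were at their highest in that line, with a median of 0.18. The 18 enzymes had a median coefficient of variation of 7.64% among control, 16.3% among HD-het and 14.8% among HD-homo libraries, and for all genes of at least 10 CPM the values in that order were 5.54%, 7.66% and 10.4%. Without HD-homo replicate 3, 17 members were lower and 2 higher in HD-homo than in control. Over all 18 enzymes, 4 of which have more than 50% of their coding windows in another gene, 15 were lower in each HD line than in control. Of the 14 without such shared sequence, 11 were lower in HD-het and 11 in HD-homo.

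Genes of sterol sensing went in both directions, and the 2 SREBP genes went opposite ways. Srebf2, which encodes the factor that drives cholesterol synthesis, measured 153, 155 and 159 CPM in control, 49.9, 51.9 and 57.9 CPM in HD-het and 109, 109 and 71.5 CPM in HD-homo libraries. The 3 lines did not overlap, and HD-homo replicate 3 lay nearest to HD-het. Srebf2 was 2.92-fold lower in HD-het (-1.55 ± 0.14, adjusted p = 5.62e-06) and lower by less in HD-homo (-0.69 ± 0.14, adjusted p = 0.00211), with 0.86 ± 0.14 (adjusted p = 2.42e-04) between the HD lines. Srebf1, whose products act mainly on fatty acid genes, measured 50.7, 56.7 and 56.8 CPM in control, 75.8, 74.7 and 93.5 CPM in HD-het and 69.7, 77.3 and 63.5 CPM in HD-homo libraries. Both HD lines lay above control without overlap, at 0.57 ± 0.11 (adjusted p = 9.13e-04) and 0.36 ± 0.11 (adjusted p = 0.0198), and they overlapped each other (-0.21 ± 0.11, adjusted p = 0.104). The HD-homo rise lost its call without control replicate 1 (0.29) or HD-homo replicate 2 (0.28). With GC and length offsets the rises were 0.37 in HD-het and 0.56 in HD-homo.

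The INSIG genes, whose proteins retain SCAP in the endoplasmic reticulum, also went in opposite directions in HD-het cells. Insig1 measured 17.1, 18.2 and 22.0 CPM in control, 11.1, 12.6 and 12.2 CPM in HD-het and 19.8, 17.1 and 9.71 CPM in HD-homo libraries. HD-het lay below control, while HD-homo spread from within control to below HD-het. The test gave -0.67 ± 0.21 (adjusted p = 0.0165) for HD-het and -0.29 ± 0.21 (adjusted p = 0.285) for HD-homo against control. The HD-het call was lost without control replicate 3 (-0.57) or HD-het replicate 1 (-0.64). HD-homo against HD-het gave 0.39 ± 0.21 (adjusted p = 0.128), and passed the threshold without HD-homo replicate 3 (0.63).

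Insig2, at 4.66, 5.40 and 5.27 CPM in control, 7.02, 8.36 and 6.95 CPM in HD-het and 4.48, 5.54 and 4.79 CPM in HD-homo libraries, was higher in HD-het only. Its HD-het libraries lay above all others, at 0.54 ± 0.13 (adjusted p = 0.00461) against control, while HD-homo overlapped control (-0.06 ± 0.14, adjusted p = 0.775) and was lower than HD-het (-0.60 ± 0.14, adjusted p = 0.00221). Scap, the escort of the SREBPs, measured 17.9, 16.6 and 17.8 CPM in control, 20.6, 18.0 and 25.5 CPM in HD-het and 14.0, 12.7 and 12.9 CPM in HD-homo libraries. HD-homo lay below the other lines, at -0.40 ± 0.13 (adjusted p = 0.0222) against control and -0.69 ± 0.13 (adjusted p = 4.99e-04) against HD-het, whereas HD-het did not pass the threshold (0.29 ± 0.12, adjusted p = 0.0651). Both calls of Scap in HD-homo were lost when trends with GC content and coding length were removed (-0.17 and -0.24). The call against control was also lost without control replicate 1 (-0.40), control replicate 3 (-0.39), HD-homo replicate 2 (-0.37) or HD-homo replicate 3 (-0.38).

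The genes of sterol export and transport held the largest rises of the set, and these were in HD-het cells. Abca1, the pump that passes cholesterol to apolipoproteins, measured 25.8, 25.2 and 17.8 CPM in control, 176, 180.2 and 159.7 CPM in HD-het and 27.9, 38.9 and 30.9 CPM in HD-homo libraries. Every HD-het library was several times above every other library, and HD-homo lay just above control. The rise was 7.49-fold in HD-het (2.90 ± 0.16, adjusted p = 1.32e-07) and 1.42-fold in HD-homo (0.50 ± 0.15, adjusted p = 0.0192), with -2.40 ± 0.16 (adjusted p = 1.90e-07) between the HD lines. The small HD-homo rise lost its call without control replicate 3 (0.35) or HD-homo replicate 2 (0.35), and was 0.86 with GC and length offsets.

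Npc1, the membrane protein that moves cholesterol out of late endosomes, measured 20.2, 22.6 and 16.5 CPM in control, 77.8, 78.3 and 106 CPM in HD-het and 20.2, 14.7 and 18.6 CPM in HD-homo libraries. It was 4.41-fold higher in HD-het (2.14 ± 0.17, adjusted p = 1.57e-06), while HD-homo overlapped control (-0.15 ± 0.17, adjusted p = 0.486) and lay far below HD-het (-2.29 ± 0.17, adjusted p = 4.77e-07). Its soluble partner Npc2, which hands cholesterol to NPC1, was higher in HD-het by less (0.69 ± 0.18, adjusted p = 0.00546), while its HD-homo difference missed the threshold (0.45 ± 0.17, adjusted p = 0.0544) but passed it under 7 of 17 alternatives.

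Mylip, an LXR target that marks lipoprotein receptors for degradation, went the other way from Abca1. Its libraries measured 6.68, 6.54 and 6.77 CPM in control, 1.56, 2.03 and 2.79 CPM in HD-het and 4.37, 6.35 and 4.83 CPM in HD-homo cells. All HD-het libraries lay below all others, at -1.66 ± 0.21 (adjusted p = 4.11e-05) against control, whereas HD-homo lay below the control values without passing the threshold (-0.37 ± 0.19, adjusted p = 0.135). HD-homo exceeded HD-het (1.30 ± 0.21, adjusted p = 1.97e-04). Without HD-homo replicate 2 the HD-homo difference from control passed the threshold (-0.54). Stard4, a soluble sterol carrier, was lower in HD-het (-1.21 ± 0.13, adjusted p = 1.78e-05) and in HD-homo (-0.87 ± 0.13, adjusted p = 2.55e-04).

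**Figure D4:**
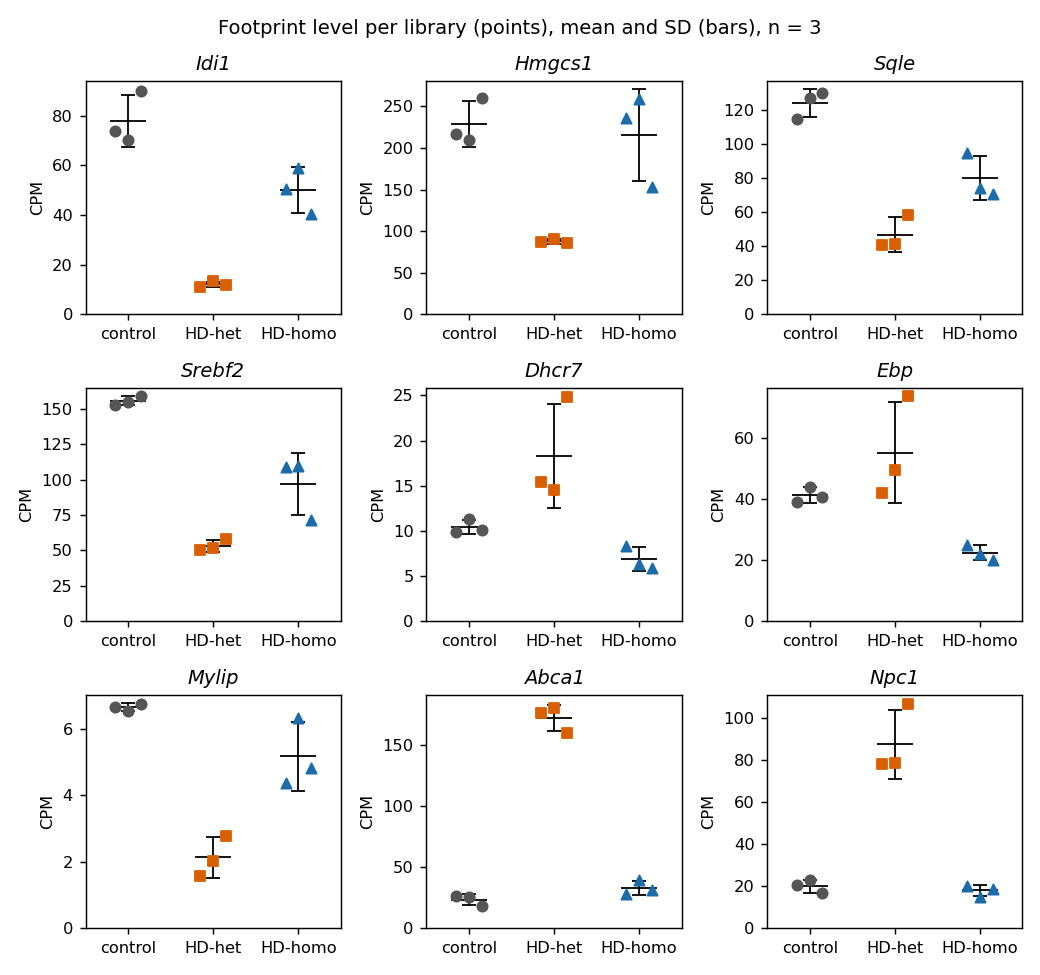
Footprint level in CPM (y axis, from 0) of 9 genes in the 3 control, 3 HD-het and 3 HD-homo libraries (points), with mean and SD (bars, n = 3). Idi1, Hmgcs1, Sqle, Srebf2 and Mylip are lowest in HD-het, where Abca1 and Npc1 are highest, and Dhcr7 lies above control in HD-het and below it in HD-homo.

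The 3 genes of fatty acid synthesis were all lower in HD-homo than in control. Fasn, the fatty acid synthase, measured 513, 549.6 and 563 CPM in control, 258, 264 and 305 CPM in HD-het and 427, 328 and 299.9 CPM in HD-homo libraries. It was lower than control in both HD lines without overlap, in HD-het (-0.98 ± 0.13, adjusted p = 5.54e-05) and in HD-homo (-0.62 ± 0.12, adjusted p = 0.00179). HD-homo ran from within the HD-het values to well above them, at 0.35 ± 0.12 (adjusted p = 0.0261). With trends in GC content and coding length removed, the HD-homo fall was -0.17 and no longer passed the threshold, whereas the difference between HD-homo and HD-het was larger (1.20). That difference lost its call when only those 6 libraries were fitted (0.32) and without HD-het replicate 1 (0.30), HD-het replicate 2 (0.32) or HD-homo replicate 1 (0.19).

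The stearoyl-CoA desaturases Scd1 and Scd2, which make monounsaturated fatty acids, did not follow Fasn in HD-het cells. Scd2 measured 279, 308 and 305 CPM in control, 374, 318 and 455 CPM in HD-het and 186, 229 and 115 CPM in HD-homo libraries. All HD-het libraries lay above and all HD-homo libraries below control, yet HD-het did not pass the threshold (0.36 ± 0.21, adjusted p = 0.150), while HD-homo was lower than control (-0.75 ± 0.21, adjusted p = 0.0119) and than HD-het (-1.11 ± 0.21, adjusted p = 6.01e-04). Scd1 measured 85.7, 96.0 and 94.1 CPM in control, 90.6, 71.2 and 115 CPM in HD-het and 71.6, 74.7 and 56.1 CPM in HD-homo libraries. HD-het scattered around control (0.00 ± 0.16, adjusted p = 0.994) and HD-homo lay below control (-0.45 ± 0.16, adjusted p = 0.0390), a call lost in the fits that left out any one of 5 libraries, control replicates 1, 2 and 3 and HD-homo replicates 1 and 3, with values from -0.51 to -0.33. HD-homo was also lower than HD-het (-0.45 ± 0.16, adjusted p = 0.0263), and leaving out a library lost that call for HD-het replicate 1 (-0.46), HD-het replicate 3 (-0.26) or HD-homo replicate 3 (-0.33). Scd1 and Scd2 share 41.0% and 35.2% of their coding windows with other genes, mainly with Scd3, whose row held 11035 counts in all.

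Per kilobase of coding sequence, the order of the 31 genes differed between lines. In control cells the highest levels were 294 CPM per kb for Npc2, 277 for Scd2, 208 for Fdps and 198 for Msmo1, and the lowest were 3.38 for Abca1 and 1.11 for Tm7sf2. In HD-het cells Abca1 reached 25.4 CPM per kb, above Srebf2 at 15.7 and Idi1 at 14.2. Among 12451 tested genes with a coding length, Abca1 moved from percentile 29.2 in control to 65.6 in HD-het and 34.6 in HD-homo, and Idi1 from 85.3 to 53.8 and 79.0.

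Genes around the pathway gave no such one-sided picture. Of 53 other genes listed for SREBP processing, LXR and oxysterols, uptake and esters, fatty acid supply and the isoprenoid branches, 50 were tested. In HD-het against control 15 were higher and 13 lower, in HD-homo against control 9 were higher and 14 lower, and in HD-homo against HD-het 15 were higher and 17 lower. These shares lay within 10 percentage points of the backgrounds given above, and the medians were 0.14, -0.06 and 0.05. Single groups were less even, but they are small and were not tested as sets. In HD-het against control, the 7 isoprenoid genes had 0 higher and 4 lower (57.1%, against 29.1%). The 13 uptake, ester and transport genes had 7 higher (53.8%, against 31%) and 1 lower there. In HD-homo against control, the 13 fatty acid supply genes had 1 higher and 6 lower (46.2%, against 22.3%). Among those of at least 10 CPM in the higher line and without overlap of the lines, the fatty acid elongase Elovl6 showed the largest fall in HD-het, from 30.2, 30.7 and 37.0 CPM in control to 6.83, 8.33 and 10.0 CPM (-1.96 ± 0.15, adjusted p = 1.25e-06). The lipoprotein receptor Vldlr showed the largest such rise, from 55.5, 55.9 and 33.2 CPM to 197, 186 and 151 CPM (1.89 ± 0.21, adjusted p = 1.88e-05). In HD-homo against control the largest rise by the same rule was that of Lpcat3, a phospholipid remodelling enzyme and LXR target (1.27 ± 0.19, adjusted p = 2.13e-04), and the largest fall that of the desaturase Fads2 (-1.28 ± 0.14, adjusted p = 2.32e-05). Between the HD lines these were Rxra, the partner of LXR (1.47 ± 0.09, adjusted p = 1.29e-07), and the endocytic receptor Lrp1 (-3.01 ± 0.23, adjusted p = 7.12e-07), the latter smaller with GC and length offsets but still past the threshold. The 7 tested LXR and oxysterol genes had 3 higher (42.9%, against 31%) and 2 lower (28.6%, against 29.1%) in HD-het than in control. In HD-homo, 4 were higher (57.1%, against 23.3%) and 1 lower (14.3%, against 22.3%), with a median log2 fold change of 1.27.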

How the data were processed

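RPFs of 26 to 32 nt from the 80S monosome fraction of 3 striatal cell lines were measured, 3 libraries a line. The authors deposited raw RPF counts per gene symbol, not normalized and not pooled. The submitters' processing notes name cutadapt, Bowtie 1.0.1 and mm10. The counting program, annotation and use of strand are not given in the sources used here.

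Libraries were grouped by genotype as labelled. Counts were tested with edgeR 4.0.16 (R 4.3.3, limma 3.58.1) in 1 quasi-likelihood fit of all 9 libraries, with TMM factors, filterByExpr by line and Benjamini-Hochberg adjustment over 12678 genes. Differences are log2 fold changes ± SE, with the SE taken as the absolute log2 fold change over the square root of F. CPM used TMM-scaled totals, with depths of 22504543 to 41888701 counts.

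The genes and lists were chosen with earlier results of these data known. Values of every library are given for the 3 genes of each role group with the largest absolute log2 fold change and for the pairs Insig1 and Insig2, Srebf1 and Srebf2, and Scd1 and Scd2. Of the other pathway genes, the called gene with the largest rise and the largest fall in each comparison was named if its higher line averaged at least 10 CPM and the lines did not overlap.

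Alternatives were RLE size factors, library totals only, a minimum of 10 counts in each library, an unfiltered table, DESeq2 1.42.0, a block on the replicate number, a fit restricted to the 6 libraries of a comparison, and leaving out each library. Offsets removing loess trends (span 0.5) in coding GC content and length, known for 98.2% of tested genes, were added after seeing the data. Coding sequences came from GENCODE on GRCm38, promoters from RefSeq. Sharing was counted in 28-nt windows. The fit was tested on simulated data: for HD-het against control, 86% of 2-fold and all 4-fold changes were recovered over 12678 genes. There were 100 changed genes of each size, and 16 false calls were made. In the data themselves 3931 genes were called higher and 3689 lower in that comparison, so these rates need not apply to it.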

Additional observations from a re-analysis of the deposited data

Results flagged for a closer look

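Dhcr7 was singled out because its RPFs moved in opposite directions in the HD lines. The level rose in HD-het cells (0.80 ± 0.20, adjusted p = 0.00502) and fell in HD-homo cells (-0.59 ± 0.21, adjusted p = 0.0374) against the same control libraries. The difference between the HD lines themselves was tested, and the log2 fold change of HD-homo over HD-het was -1.39 ± 0.21 (adjusted p = 1.12e-04). The HD-homo fall did not pass the threshold in the fits that left out any one of 5 libraries, as given above. Without HD-het replicate 3 the HD-het rise was 0.50 and still passed.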

How the results depend on the processing

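No difference past the threshold changed direction under any alternative run. Of 1578 values for the 31 genes (93 differences, each under up to 17 alternatives), 1485 kept their side of the threshold, 59 lost the call and 34 gained one, and 67 of the 93 differences kept their call throughout. The number of genes higher in HD-homo than in control, 2 in the main analysis, ranged from 1 to 3 when a library was left out, and was 1 when control replicate 1, control replicate 3 or else HD-homo replicate 2 was omitted. Srebf1 was lost in the first of these and Abca1 in the second, while in the last both were lost and Npc2 passed. The other counts stayed within 1.5 times. Genes lower in HD-het than in control numbered 18 to 20, and lower in HD-homo than in control 17 to 21. With GC and length offsets 19 were lower in each HD line. Deviations from the line mean correlated at -0.36 to 0.17 in the 9 same-numbered pairs of libraries, and only 1 pair exceeded 0.1. With 3 libraries a line this check is weak, and it cannot exclude that same-numbered libraries were prepared together. With the replicate block, 20 genes were lower and 6 higher in HD-het, 19 lower and 3 higher in HD-homo against control, and 12 higher and 9 lower in HD-homo against HD-het. Among the 31 genes, that fit did not call Dhcr7 (-0.60) and Scd1 (-0.44) in HD-homo against control or Scd1 in HD-homo against HD-het (-0.44), and it called Npc2 in HD-homo against control (0.41). With at least 10 counts in every library Tm7sf2 could not be tested. Depth limits Tm7sf2 most, with 15, 9 and 9 counts in the HD-homo libraries.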
